A study of Mus musculus with 19 samples.

Results

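The Myc, Max and Mxd network is a set of basic helix-loop-helix leucine zipper proteins that compete for partners and for the same DNA sites. Its 10 members followed here were taken by name: the Myc family (Myc, Mycn and Mycl), the common partners Max and Mlx, and the repressors Mxd1, Mxd3, Mxd4, Mxi1 and Mnt. They make up 10 of the 39179 gene identifiers in the count table, and each was matched by gene symbol to 1 identifier. RNA levels were read in liver tumours of male mice that carry Ctnnb1tm1Mmt (HET) and Gt(ROSA)26Sortm1(MYC)Djmy (HOM). In the mice with tumours these alleles were switched on with the virus AAV8.TBG.PI.Cre.rBG at 640000000 genome copies per mouse. The TBG promoter drives Cre in hepatocytes, the mice were of mixed background, and the samples were pieces of whole tumour that also hold vessels, blood and immune cells. The study asked how tumours of this genotype vary, in their proliferation among other features, and the series holds 13 tumours, 3 control livers and 3 high AAV control livers. The 10 tumours numbered 04 to 13 were analysed as 1 group; the control livers were not analysed here, so that no level below is set against non-tumour liver.

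Myc proteins bind DNA as dimers with Max and switch genes for ribosome production, metabolism and cell division on. Mxd1, Mxd3, Mxd4, Mxi1 (also called Mxd2) and Mnt also dimerise with Max, occupy the same sites, and recruit Sin3 and histone deacetylases to switch genes off. Mlx pairs with Mnt, Mxd1 and Mxd4, and with the nutrient-responsive factors Mlxip and Mlxipl. In liver, MYC is a common driver of hepatocellular carcinoma, and mouse Myc is a known target of β-catenin, the product of Ctnnb1. The mice carry a human MYC transgene whose reads the count table does not list separately. Reads of the transgene that matched the mouse gene would be counted as Myc, and how many did so was not tested.

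The DNA site of the network is the E-box, and several members carry one near a transcription start of their own gene. The canonical E-box (CACGTG, which reads the same on both strands) was searched in RefSeq windows from 250 bases before to 50 bases after a transcription start on GRCm38.p6. Windows were at hand for 9 of the 10 members, all but Myc, and came to 11, with 3 for Mxi1 and 1 for each of the others, so that not every start was searched. Of these 11 windows 4 (36.4%) hold the motif, beside 2349 of all 32851 windows (7.15%). The 30 bases around each match are given 5′ to 3′ on the strand of the gene with the E-box in capitals, because they are the letters that Myc and Max dimers and Mxd and Max dimers both read. In Max (chr12:76962239-76962268, minus strand) the motif begins at position -3 from the start, and in Mlx (chr11:101087233-101087262, plus strand) at -40. In Mnt (chr11:74830784-74830813, plus strand) it begins at -123, and in Mxd4 (chr5:34187917-34187946, minus strand) at -219. The Max and Mlx stretches lie whole within the span of the annotated gene, which has further starts upstream, the Mnt stretch overlaps it by 8 bases, and the Mxd4 stretch lies outside it.
Max: ggcgcggtgagcccggtCACGTGttagggg
Mlx: ggattggtgggttggatCACGTGactgagc
Mnt: ctcacccccacccaagcCACGTGtgcgcgc
Mxd4: cactggggctgggccacCACGTGctgttgc
A noncanonical E-box (CACGCG, or CGCGTG on the other strand) was found in 1 of the 11 windows (9.09%), that of Mycl, beside 9.27% of all windows. These matches describe the letters alone, since no binding was measured.

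Between 11687034 reads in tumour 07 and 36964427 in tumour 13 were assigned to genes (median 16664597). Levels are counts per 1000000 gene counts (CPM) after scaling between tumours, and 3 counts correspond to between 0.0767 and 0.277 CPM. Each tumour carries a tag in the table whose meaning the labels do not give: RMH4 for tumours 04 to 06, RMH18 for 07 and 08, and RMH35 for 09 to 13. The full tag is shared by tumours 05 and 06, by 07 and 08, by 09 and 10, and by 11, 12 and 13, and only tumour 04 has its own. Tumours with the same full tag may come from 1 mouse, so that the 10 tumours may stand for as few as 5 mice. The tissue label was checked on 8 hepatocyte markers, all of which were counted in every tumour, with a summed level between 28448 and 47890 CPM. Tumour 05 stood apart: it had the lowest mean of the hepatocyte markers (8.18 log2 CPM, against 8.96 to 10.30 elsewhere) and of the macrophage markers (1.44 against 3.20 to 4.75), although Cd68, 1 of these 8, was highest there at 68.3 CPM. RNAs without a poly(A) tail were higher in tumours 05, 06 and 07 (means of 0.66 to 1.16 log2 CPM) than in the other 7 (at most -0.94).

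**Figure D1:**
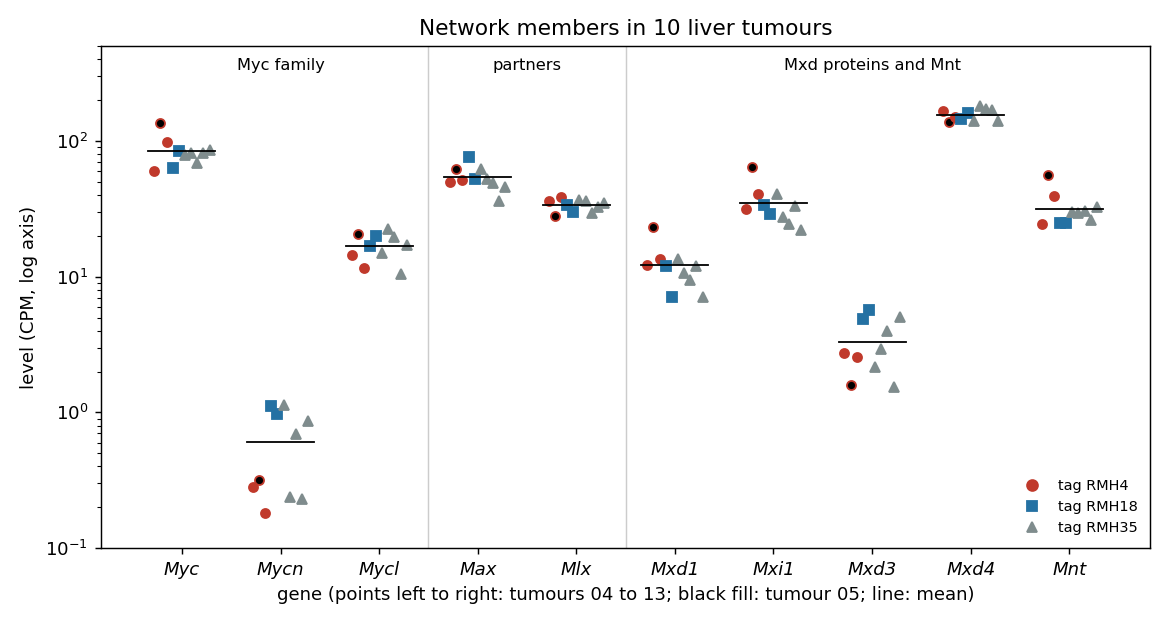
Level of each network member in each tumour, in CPM on a log axis. Points run from tumour 04 to tumour 13 within a gene, shapes and colours give the first part of the tag, black fill marks tumour 05 and the line is the mean of 10 tumours. Myc, Mxd1, Mxi1 and Mnt were each highest in tumour 05, and Mxd4 and Mlx were each lowest there.

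Myc had the highest level of the family, with the limit that reads of the human transgene may be among its counts. Its gene (chr15:61985341-61990361, plus strand, GRCm38.p6) had 83.7 ± 21.6 CPM (SD, n = 10). The level was 60.1 CPM in tumour 04, 63.4 in 07, 68.9 in 11 and 78.4 in 09. It was 81.0 CPM in tumour 12, 81.5 in 10, 83.5 in 08 and 86.0 in 13. The highest levels were 97.9 CPM in tumour 06 and 136 in 05. Both of these tumours carry the same tag, while tumour 04, from the same tag family, was the lowest of all. The range from lowest to highest was 2.27-fold, and 1.63-fold without tumour 05, whose absence lowered the mean to 77.9 ± 11.9 CPM (n = 9).

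Mycl, a family member with weaker transforming activity, had 16.8 ± 3.93 CPM (SD, n = 10). It ranged from 10.5 CPM in tumour 12 and 11.6 in tumour 06 to 20.5 in tumour 05 and 22.3 in tumour 10, so that the tumours with much Myc were found at both ends. Mycn, which is best known from embryonic tissue and neuroblastoma, was barely counted. Its counts were 3 to 34 reads per tumour and its level was 0.603 ± 0.393 CPM. Tumours 07, 08, 09, 11 and 13 had 0.694 to 1.14 CPM and tumours 04, 05, 06, 10 and 12 had 0.182 to 0.319 CPM. Mycn was the only member that did not pass the filter on low counts, and no slope was fitted for it.

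Max, the obligate partner of the Myc family and of most repressors (chr12:76937269-76962323, minus strand), had 53.8 ± 10.7 CPM (SD, n = 10). Tumour 07 was the highest at 75.9 CPM, followed by tumour 09 at 62.3 and tumour 05 at 61.9. Tumour 12 was the lowest at 36.3 CPM, and the other 6 lay between 46.0 and 52.5. The tumours with most Max were not those with most Myc: tumour 07 had the second lowest Myc level. Tumours 07 and 09 also had the highest mean of the 7 endothelial markers (5.70 and 4.94 log2 CPM, against 2.48 to 4.35 in the other 8) and of the 5 blood markers (9.62 and 7.76 against 3.72 to 5.73). All 7 endothelial markers were counted in every tumour, with a summed level between 52.0 and 424 CPM, and their part in the Max level was not tested. In bulk tissue, fewer cells of a type and less RNA per cell cannot be told apart.

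Mlx, the alternative partner (chr11:101086707-101092207, plus strand), was nearly level between tumours, with 33.6 ± 3.55 CPM, from 27.8 in tumour 05 to 38.8 in tumour 06. Its range was 1.40-fold. Its biological coefficient of variation (BCV) was 0.177 and lay at percentile 2.04 of the 12462 genes kept by the filter. The BCV is edgeR's estimate of the relative SD between tumours beyond counting error. It is drawn toward the values of other genes, so that for an even gene it can exceed the spread observed. Exons of Mlx overlap those of Psmc3ip on the other strand over 1109 of their 2137 bases, and the strand setting of the counting was not given, so that some of these reads may belong to Psmc3ip.

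Among the repressors, Mnt is known as present in most cells, Mxd1, Mxi1 and Mxd4 as products of resting or differentiating cells, and Mxd3 as a product of cells in S phase. Mxd4 (chr5:34176580-34187710, minus strand) had the most reads of all members, 156 ± 15.5 CPM (SD, n = 10). It ran from 137 CPM in tumour 05 to 180 in tumour 10, a range of 1.31-fold. Its BCV of 0.186 lay at percentile 4.93. Mxd4 and Mlx were thus the most even members, and both were lowest in tumour 05.

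Mnt (chr11:74830806-74845725, plus strand), a repressor regarded as a counterweight to Myc, had 31.7 ± 9.61 CPM. Its level was 24.4 CPM in tumour 04, 24.8 in 08, 25.0 in 07 and 26.3 in 12. It was 29.2 CPM in tumour 10, 29.9 in 09, 30.5 in 11 and 32.3 in 13. As for Myc, the highest were tumour 06 at 39.0 CPM and tumour 05 at 56.0. Without tumour 05 the range fell from 2.30-fold to 1.60-fold.

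Mxi1 (chr19:53310128-53373293, plus strand) had 34.7 ± 11.9 CPM. Tumour 05 reached 63.8 CPM, followed by 40.9 in tumour 06 and 40.3 in tumour 09, and tumours 11 (24.6) and 13 (22.0) were lowest. Mxd1 (chr6:86647044-86669234, minus strand) had 12.1 ± 4.58 CPM, with 23.3 in tumour 05, 13.6 in tumour 09 and 13.4 in tumour 06. Its lowest values were 7.05 CPM in both tumour 08 and tumour 13, which had the highest mean levels of proliferation genes. Mxd1 and Mxi1 rank the tumours alike: Mxi1 was the gene with the second highest correlation to Mxd1 among 12461 genes (Pearson's r = 0.918, Spearman's rho = 0.879, n = 10). Both values are descriptions, and tumour 05 contributes to r.

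Mxd3 (chr13:55325170-55329900, minus strand) was the least abundant repressor with 3.30 ± 1.48 CPM, from 25 to 197 counts per tumour. It followed another order: 5.65 CPM in tumour 08, 5.03 in 13, 4.89 in 07 and 3.97 in 11, and 1.60 in tumour 05 and 1.54 in tumour 12 at the low end. With a BCV of 0.430, at percentile 85.9 of kept genes, Mxd3 was the most uneven member tested. Part of its exons (876 of 2760 bases) overlaps Prelid1 on the other strand, so that its counts are uncertain in the same way as those of Mlx. Between these ends the BCV lay at percentile 28.8 for Max, 48.1 for Myc, 53.0 for Mycl, 56.8 for Mnt, 66.9 for Mxi1 and 76.4 for Mxd1.

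Levels of different genes can be compared only per length. The lengths came from GENCODE M39, and the annotation release used for the counting is not given, so that the exons counted may differ. On the scale of CPM per kilobase of all annotated exons merged, Myc was highest at 30.7 ± 7.91 (SD, n = 10). It was followed by Mxd4 at 18.0 ± 1.79, Mlx at 15.7 ± 1.66 and Max at 12.5 ± 2.50. Mnt (5.96 ± 1.81), Mxi1 (4.78 ± 1.64) and Mycl (3.98 ± 0.933) came next, then Mxd1 (1.65 ± 0.626), Mxd3 (1.20 ± 0.538) and Mycn (0.131 ± 0.0852). Myc exceeded Mxd4 in 10 of 10 tumours, by 0.73 ± 0.42 on the log2 scale. Neighbours in this order that did not differ beyond their spread were Mxd4 and Mlx, Mxi1 and Mycl, and Mxd1 and Mxd3.

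The summed RNA of the Myc family and of the repressors was nearly balanced on the same scale. The family reached 34.8 ± 8.13 CPM per kb, of which Myc was 87.8% ± 3.20, and the 5 repressors 31.6 ± 2.94 CPM per kb, of which Mxd4 was 57.4% ± 7.10 (SD, n = 10). The ratio of the family over the repressors was 1.09 ± 0.173, lowest in tumour 04 at 0.825 and highest in tumour 05 at 1.41. It was above 1 in 7 of 10 tumours, all but 04, 07 and 11. In tumour 05 the repressor sum was also the highest (38.9 CPM per kb), and Mxd4 made up 40.7% of it, the least of all tumours, while Mnt (27.1%) and Mxi1 (22.6%) took larger shares. The family sum leaves out the human MYC transgene, apart from any of its reads that were counted as mouse Myc.

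This balance depends on the gene length used. The merged exons of Mxd4 span 8659 bases and its longest transcript 4627. With the longest transcript as length, Mxd4 stood at 33.8 CPM per kb beside 35.2 for Myc, and the log2 ratio of the family over the repressors went from a mean of 0.11 to -0.38. It was then above 0 in 1 of 10 tumours, tumour 05. Which transcripts of Mxd4 the tumours made was not tested.

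**Figure D2:**
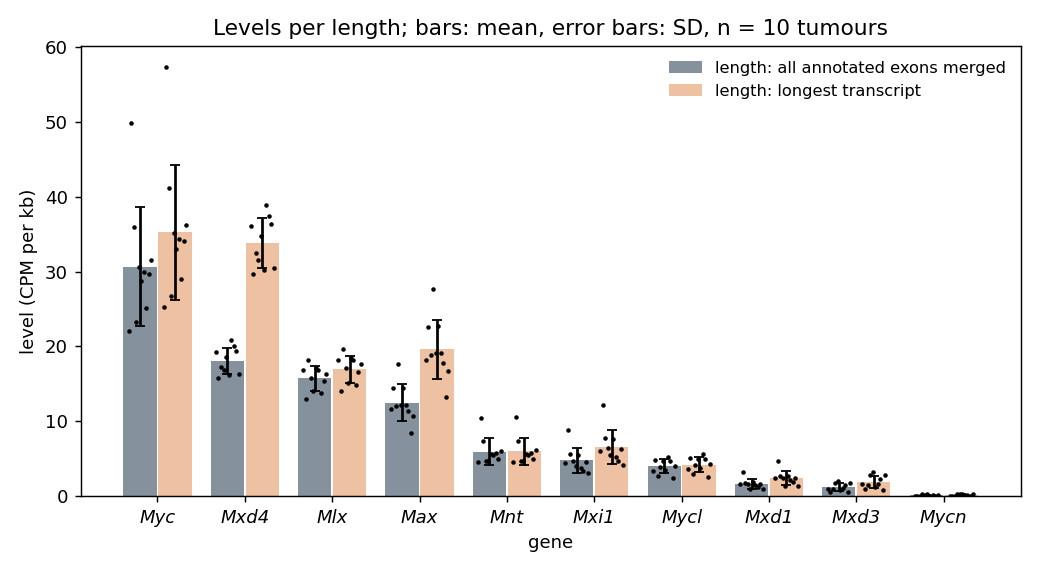
Mean level of each member in CPM per kb of length, with SD bars over 10 tumours and 1 dot per tumour, for the 2 ways of taking the length. Myc stands above Mxd4 with merged exons (30.7 against 18.0) and level with it with the longest transcript (35.2 against 33.8).

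The next question was which members followed the Myc level from tumour to tumour. For each gene a slope was fitted: the change in its log2 CPM for 1 unit of log2 CPM of Myc. The slope of Mnt was 0.98 ± 0.19 (SE), so that Mnt differed between tumours about as much as Myc did. The slope of Mxi1 was 0.83 ± 0.29 and that of Mxd1 0.76 ± 0.36. Mxd3 (-0.88 ± 0.66), Mxd4 (-0.20 ± 0.19), Mlx (-0.14 ± 0.20), Max (-0.02 ± 0.27) and Mycl (0.17 ± 0.34) had slopes that were closer to 0 or had large errors. Of the 4 members with an E-box in their window, Mnt alone had a slope more than 1 SE above 0.

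None of the 8 members tested passed the threshold of an adjusted p of 0.05, and neither did any other gene: edgeR's quasi-likelihood test called 0 of 12461 genes higher (0%) and 0 lower (0%). At an unadjusted p under 0.05 it counted 1849 genes, 14.8% of those tested. This share was 7.82% without tumour 05, 8.42% with the first part of the tag as a term and 4.21% with the full tag as a term. By p, Mnt stood at place 36 of 12461 (p = 0.000330, adjusted p = 0.110 by edgeR), and Mxi1 at place 808 (adjusted p = 0.228 by edgeR). DESeq2's Wald test, fitted to the same genes, called 146 genes higher and 63 lower, with Mnt as the only 1 of 8 members among them (adjusted p = 0.00837 by DESeq2). Mnt therefore passed with DESeq2 and not with edgeR. With edgeR the count of genes called higher was 151 without tumour 04 and 4 without tumour 13, and that of genes called lower was 9 without tumour 04, and Mnt was in none of these (smallest adjusted p = 0.0547 by edgeR with 1 tumour left out).

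Tumour 05 carried much of these slopes. Without it the slope was 0.70 for Mnt (adjusted p = 0.637 by edgeR), 0.20 for Mxi1 (adjusted p = 0.919 by edgeR) and -0.20 for Mxd1 (adjusted p = 0.932 by edgeR). That of Mxd3 went from -0.88 to -0.23 (adjusted p = 0.954 by edgeR). Pearson's r of Mnt with Myc was 0.887 over 10 tumours (rho 0.709) and 0.692 over the 9 tumours left. For Mxi1 it went from 0.634 to 0.108, and for Mxd1 from 0.482 to -0.187. None of these slopes passed the test with or without tumour 05 by edgeR, and whether they differ between the members was not tested. With the first part of the tag as a term, the slope of Mnt was 0.84 (adjusted p = 0.475 by edgeR). With the full tag as a term, a fit chosen after seeing the data in which tumour 04 carries no weight, it was 0.49 (adjusted p = 0.990 by edgeR), that of Mxi1 0.40 and that of Mxd1 0.00.

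**Figure D3:**
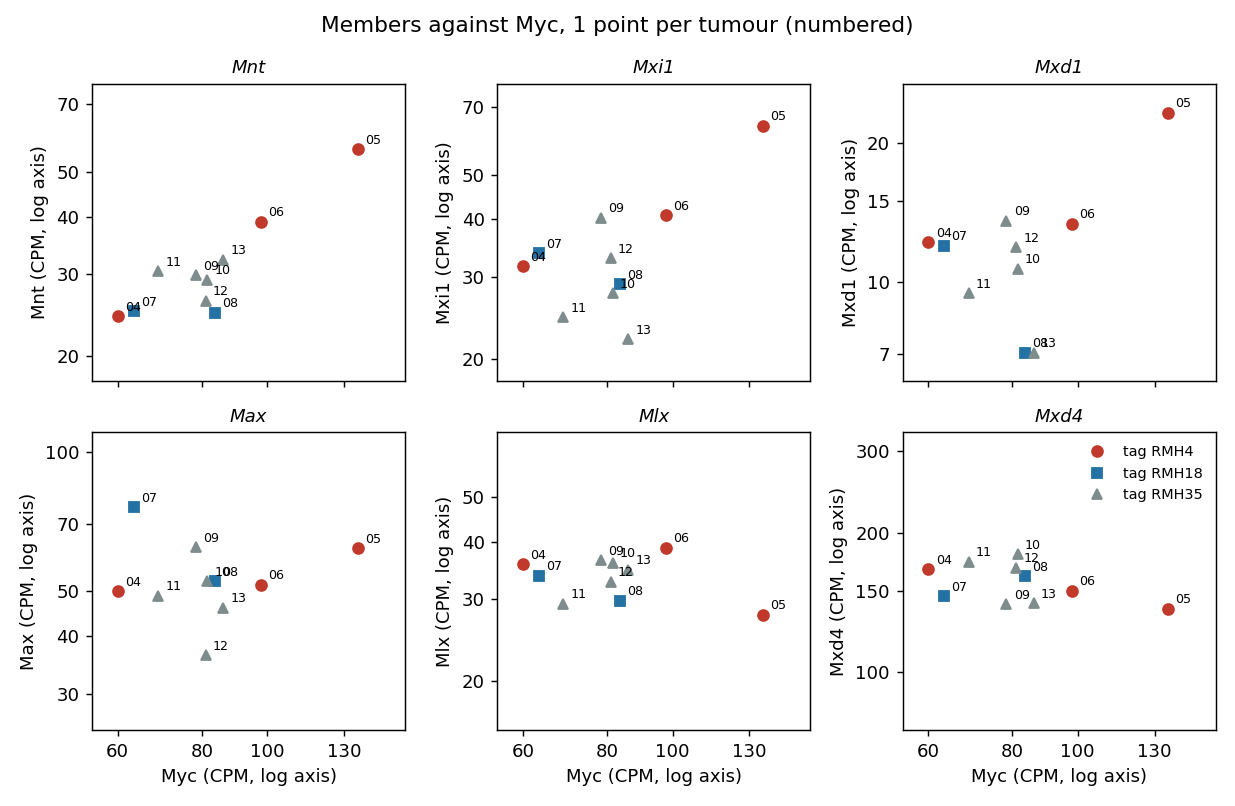
Level of 6 members against the level of Myc, both in CPM on log axes, with 1 numbered point per tumour and shapes by the first part of the tag. Tumour 05 lies at the upper right for Mnt, Mxi1 and Mxd1. Tumour 04 is lowest for both Myc and Mnt.

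Markers of other cell types were set along the Myc level as well. Over all genes tested 48.5% of slopes were above 0 and 14.8% had an unadjusted p under 0.05. Of the blood markers 4 of 4 tested had slopes below 0 and an unadjusted p under 0.05 (median slope -3.52), as had 2 of 2 dendritic cell markers (median -1.76). Of 5 macrophage markers 4 had slopes below 0 and 3 an unadjusted p under 0.05 (median -1.20), and 7 of 7 stellate cell and fibroblast markers had slopes below 0 (median -0.74). Of 7 endothelial markers 1 had a slope above 0 (median -0.77), as had 1 of 8 hepatocyte markers (median -0.27). None of them was called, and their part in the slopes of the members was not tested.

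Other genes of the pathway were then followed along the Myc level. The 10 cofactors that Myc recruits to chromatin (such as the histone acetyltransferase scaffold Trrap and the ATPase Ruvbl2) all had slopes above 0, as had 48.5% of all genes tested, with a median of 0.42 beside -0.02 over all genes. No cofactor was called, and 5 of 10 had an unadjusted p under 0.05, beside 14.8% of all genes. The smallest p values were those of Wdr5 (0.51 ± 0.17, adjusted p = 0.209 by edgeR) and Ruvbl2 (0.67 ± 0.23, adjusted p = 0.220). Of 8 subunits of the Sin3 and NCoR corepressors 5 had slopes above 0 (median 0.35) and none was called. The smallest p values were those of Sap30 (1.43 ± 0.44) and of Ncor1 (0.55 ± 0.18), which have adjusted p values of 0.189 and 0.200 by edgeR. Sap30, a Sin3 subunit, had 30.6 CPM in tumour 05 beside a median of 9.06. The mean level of the cofactors was highest in tumours 05 (5.69 log2 CPM) and 06 (5.64) and lowest in 07 (5.16).

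Of 10 genes whose products set the lifetime or activity of the Myc protein, 7 had slopes above 0 (median 0.17) and none was called. Gsk3b, the kinase that marks Myc for degradation, had a slope of 0.79 ± 0.19 (adjusted p = 0.133 by edgeR) and Usp36, a nucleolar enzyme that removes ubiquitin from Myc, 0.81 ± 0.25 (adjusted p = 0.197). Both were highest in tumour 05, at 91.3 and 71.3 CPM. The related factors Mga (0.51 ± 0.26), Mlxip (0.37 ± 0.21) and Mlxipl (-0.24 ± 0.38), which dimerise with Max or Mlx, were not called either.

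Of 20 genes that Myc is known to switch on, mostly of ribosome production and metabolism, 15 had slopes above 0 with a median of 0.15, and none was called. A slope that misses the threshold is not shown to be 0. Ldha (lactate dehydrogenase) had the smallest p (0.97 ± 0.28, adjusted p = 0.174 by edgeR), followed by Srm, an enzyme of polyamine synthesis (0.84 ± 0.32, adjusted p = 0.265). The mean of the list was highest in tumour 06 (6.97 log2 CPM), and tumour 05, with the most Myc, had 6.56, within the range of the other tumours.

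Genes that Myc is known to switch off were not lowest where Myc was highest. Of 6 such genes tested 4 had slopes above 0 (median 1.17) and none was called. Gadd45a, a growth arrest and DNA damage gene, had a slope of 2.94 ± 0.54 (adjusted p = 0.0974 by edgeR) and 47.5 CPM in tumour 05 beside a median of 5.21. The cell cycle inhibitors Cdkn1a (482 CPM beside a median of 128) and Cdkn1b (55.9 beside 22.8), and Ndrg1 (1830 beside 262), a gene induced by stress and low oxygen, were also highest in tumour 05. Tumour 05 thus combined the most Myc with the most Mnt, Mxi1, Mxd1 and Cdkn1a, and with the lowest means of the hepatocyte and macrophage markers. Of the hepatocyte markers Alb, Ttr, Serpina1c and Cps1 were at their lowest there, and Apoa1, Hnf4a, Ass1 and Cyp2e1 were not. The part of cell composition and RNA quality in this combination was not tested.

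**Figure D4:**
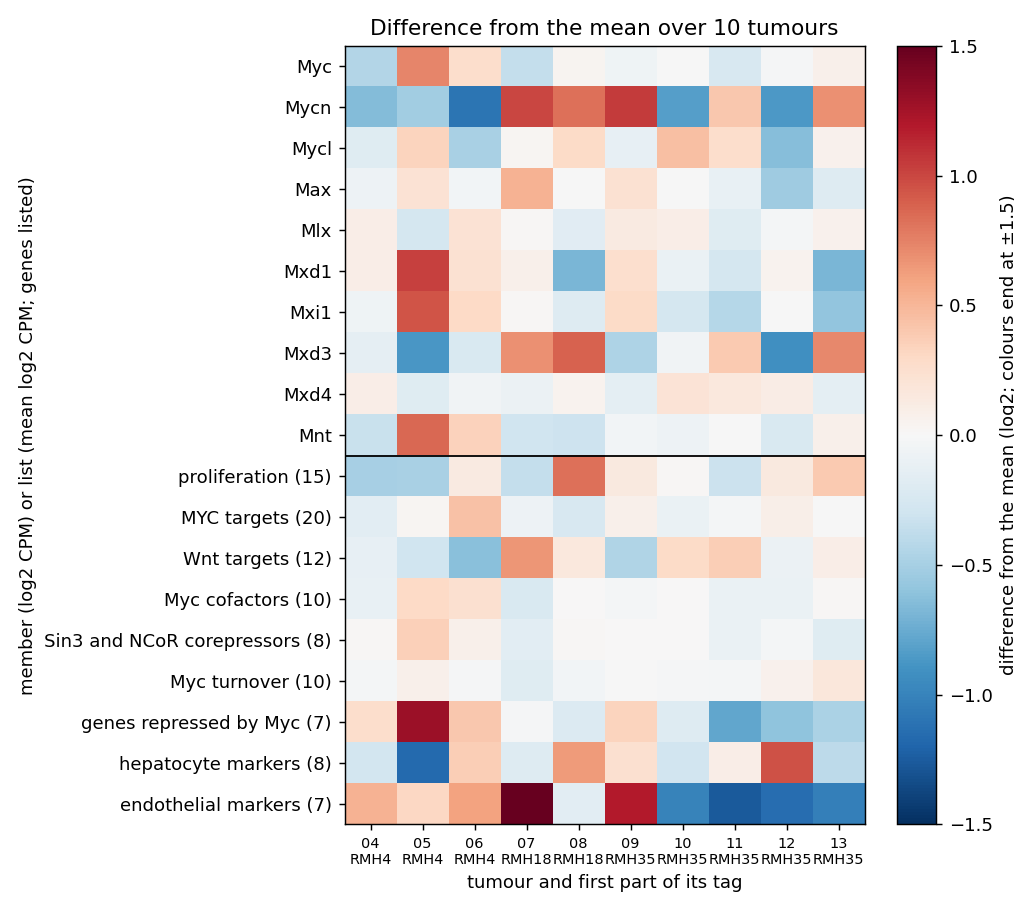
Difference of each member (log2 CPM, upper 10 lines) and of each gene list (mean log2 CPM, lower 9 lines, with the number of genes listed) from its mean over 10 tumours, in colour that ends at ±1.5. Tumour 05 is red for Myc, Mxd1, Mxi1, Mnt and the genes repressed by Myc, and blue for Mxd3 and the hepatocyte markers.

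The members were also set against 3 measures of what the tumours were doing. The first was proliferation, the mean log2 CPM of 15 cell division genes, which ran from 3.65 in tumour 04 and 3.66 in tumour 05 to 4.54 in tumour 13 and 4.97 in tumour 08. The slope of Myc on this score was -0.01 ± 0.27 (adjusted p = 0.998 by edgeR), and it was 0.42 without tumour 05 and 0.29 with the first part of the tag as a term. The slope of Mxd1 was -0.85 ± 0.31 (adjusted p = 0.714) and that of Mxd3 0.57 ± 0.43 (adjusted p = 0.876). Neither slope passed the test. The slope of Mxd1 became -0.51 without tumour 05, and that of Mxd3 was 0.18 without tumour 08. Along this score 7 of 7 endothelial markers and 4 of 4 blood markers tested (median slope of the blood markers -2.84) had slopes below 0, and 7 of 8 hepatocyte markers had slopes above 0 (median 0.36), beside 48.1% above 0 over all genes. Their part in the slopes of the members was not tested. No gene was called, higher or lower, of 12447 tested (0%) by edgeR, with 754 at an unadjusted p under 0.05. DESeq2 called 47 higher and 9 lower, with no member among them.

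The second was the mean of the 20 MYC targets, which varied little (6.29 in tumour 08 to 6.97 in tumour 06). Myc itself had a slope of 0.71 ± 0.58 on it (adjusted p = 0.920 by edgeR) and Mycl one of -1.23 ± 0.57 (adjusted p = 0.799). The slope of Myc was -1.04 with the full tag as a term and 2.22 without tumours 06 and 08, the ends of the score, and ran from 0.50 to 1.07 with single tumours left out. That of Mycl was -2.45 with the full tag. Mycl was lowest in tumours 12 and 06, which had the highest target scores. Along this score 4 of 4 blood markers tested had slopes below 0 (median -3.69). Of 5 macrophage markers 4 had slopes above 0 (median 0.87), beside 49.1% of all genes. None of these markers had an unadjusted p under 0.05, and their part in the slopes of the members was not tested. By edgeR 0 of 12442 genes were called in either direction (0%), with 781 at an unadjusted p under 0.05, and DESeq2 called 14 higher and 17 lower, with no member among them.

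The third was the mean of 12 Wnt targets, read because β-catenin is mutant in these mice and is known to act on Myc. It ran from 6.59 in tumour 06 to 7.88 in tumour 07. The slope of Myc was below 0, at -0.49 ± 0.25 (adjusted p = 0.390 by edgeR), as were those of Mxi1 (-0.65 ± 0.29, adjusted p = 0.332) and Mnt (-0.52 ± 0.28, adjusted p = 0.406). Mxd3 had a slope of 1.10 ± 0.44 (adjusted p = 0.282 by edgeR). With the full tag as a term these slopes were -0.10 for Myc, -0.24 for Mxi1 and 0.40 for Mxd3. Without tumour 05 the slope of Myc was -0.30 and that of Mxi1 -0.42, and without tumour 07 that of Mxi1 was -1.06. No member passed, while 2 of 12450 genes were called higher (0.0161%) and 2 lower (0.0161%). The genes called were Scn4b (slope 2.86) and Cyp2c37 (1.92), both higher, and Steap4 (-2.09) and Cpb2 (-1.69), both lower. With single tumours left out the counts ran from 0 to 6 higher and from 1 to 8 lower, the most without tumour 07. No gene was called in either direction with the first part of the tag or the full tag as a term, or without tumours 06 and 07. DESeq2 called 196 higher and 156 lower, with no member among them. Myc was thus not highest in the tumours with the most Wnt target RNA: tumour 07, with the highest score, had the second lowest Myc level, and tumour 06, with the lowest score, the second highest. Tumour 07 also had the highest means of the blood (9.62 log2 CPM) and endothelial markers (5.70). Along the Wnt score 4 of 4 blood markers tested had slopes above 0 (median 1.72), beside 49.0% of all genes. So had 4 of 7 endothelial markers (median 0.30) and 4 of 8 hepatocyte markers (median 0.07). Their part in the slopes of the members was not tested.

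**Figure D5:**
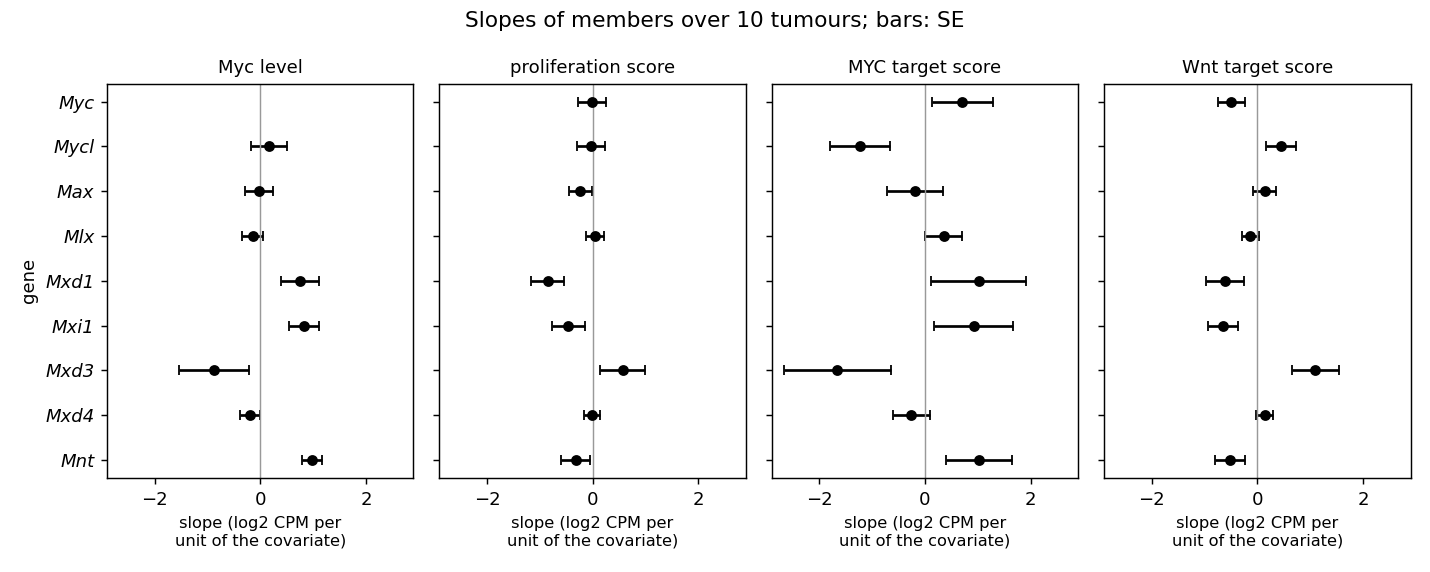
Slope of each tested member on the Myc level and on the 3 scores (log2 CPM per unit of the covariate), with SE bars, over 10 tumours. The bars of Mnt, Mxi1 and Mxd1 lie above 0 on the Myc level (0.98, 0.83 and 0.76), and no slope in the 4 panels passed edgeR's threshold.

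Each member was also set beside the other genes of its chromosome. The median difference of 476 kept genes on chromosome 15 from their mean over tumours ran from -0.24 to 0.30 on the log2 scale. Myc had the same sign as this median in 4 of 10 tumours. In tumour 04 the median was highest (0.30) and Myc lowest (-0.44), and in tumour 05 Myc stood at 0.74 beside a median of 0.17. For the 31 kept genes within 5 Mb of Myc the count was also 4. It leaves out tumour 10, where Myc stood at -0.00 and the median of these genes at -0.05. For the other members the count against the whole chromosome lay between 4 and 7 of 10, with 7 for Mycn. Within 5 Mb it was 8 for Mycn. The counts used rounded values, and a value too small to keep its sign was not counted as a match. The count of 6 for Mxd1 left out tumours 09 and 10 in this way (chromosome medians of 0.00 and -0.00). Copy number itself was not measured.

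The genes whose levels were most like those of a member were listed as a description, by Pearson's r of log2 CPM over 10 tumours among 12461 genes. For Myc these were Sel1l (r = 0.955, rho = 0.903), Jmy (0.940, 0.770), Pcgf5 (0.938, 0.855), Parn (0.931, 0.903) and Phactr4 (0.927, 0.855). Mnt was nearest to Zc3h7a (r = 0.975), with which it ranked the tumours identically (rho = 1.00), and Mxi1 to Fam117b (r = 0.963, rho = 0.976), Tbc1d15 (r = 0.950) and Vhl (r = 0.950). Max was nearest to Adgrf5 (r = 0.943, rho = 0.903), a receptor known from endothelial cells. Mxd4 was nearest to Akr1c13 (r = 0.969, rho = 0.952) and to Otc (r = 0.921, rho = 0.927), a urea cycle enzyme of hepatocytes. The nearest genes of Mycl were Fermt1, Arhgap6 and Krba1 (r = 0.915 to 0.876), of Mxd3 Gm38393, Dnajc4 and Tmem9 (0.917 to 0.901), and of Mlx Gm15528, Itpripl1 and Ncf1 (0.863 to 0.837). Each is the highest of many correlations over the same 10 tumours, and those for Myc, Mnt, Mxi1 and Mxd1 share the high value of tumour 05.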

How the data were processed

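The authors deposited 1 table of raw read counts per gene, without normalisation. The submitters' processing notes name TopHat2, HTSeq and GRCm38, and the table ends in 5 summary lines of the kind htseq-count writes; versions and strand setting are not given in the sources used here. Libraries were stranded and made from polyadenylated RNA. Columns were matched to tumours by a number found in 1 title only; 9 columns were not used, and the match assumes that these numbers are library numbers. The summary line for alignments that were not unique held 50.4% of all counts in the table, as a mean over tumours. Counts were scaled with TMM in edgeR 4.0.16 (R 4.3.3). Values on the log2 scale have a prior count of 2, and filterByExpr kept 12462 genes. Slopes were tested with glmQLFTest over all kept genes with Benjamini-Hochberg adjustment; DESeq2 1.42.0 was an alternative. The scripts were tested on simulated data. Symbols and lengths came from GENCODE M39, positions and windows from RefSeq on GRCm38.p6. Of 161 listed genes 159 were matched. The members and lists were chosen with earlier results of these data known. The text names every member, up to 4 genes per list by smallest p, called genes, and the genes most like a member; genes of a list named for their level in tumour 05 were chosen after their values were seen. The labels do not say that tumours come from separate mice, so p-values measure the spread between these samples, and intervals of counts cover counting error only. Precision rests on 11687034 to 36964427 gene counts per tumour.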

Additional observations from a re-analysis of the deposited data

Results flagged for a closer look

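For 19 measures over 10 tumours, the gap between the most extreme tumour and its neighbour was divided by the range and set against Dixon's critical value for 95% confidence. Chance passes about 1 in 20 such groups. No single member passed it: the nearest were Mxd1 (0.449), Mnt (0.436), Mxi1 (0.418) and Myc (0.403), each for the highest value in tumour 05. Of the lists, the mean of the MYC targets was set apart in tumour 06, at 6.97 log2 CPM with the next tumour at 6.62. The mean of the Sin3 and NCoR corepressors was set apart in tumour 05, at 5.53 log2 CPM with the next tumour at 5.25.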

How the results depend on the processing

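No paired analysis was possible because only tumours were used, as 1 group, and no second group shares replicate numbers with them. Tags shared by tumours were used as a term instead, the full tag as an alternative chosen after seeing the data, in which tumour 04 carries no weight. Of 517 alternative values for 51 results, 463 were classed as the same. For a slope this asked only for the same direction and side of the threshold, whatever its size. The slope of Mxi1 on Myc, 0.83 and 0.20 without tumour 05, is thus among them, as are slopes not called in either fit. For counts, levels and spread it allowed a limited change in size. On the Myc level, DESeq2's Wald test called 146 genes higher and 63 lower, and with it Mnt passed the threshold. Leaving out 1 tumour gave 0 to 151 called higher and 0 to 9 called lower, the highest of both without tumour 04 and with 4 higher without tumour 13. The slope of Mxd1 on Myc was below 0 without tumour 05 (-0.20) and without tumours 04 and 05 (-0.04), and over single tumours left out it ran from -0.20 to 0.98. On proliferation, DESeq2 called 47 higher and 9 lower, and the slope of Myc was 0.29 with the tag family as a term, 0.17 with the full tag, 0.25 with RNAs without a poly(A) tail as a term, and -0.16 to 0.42 with single tumours left out (0.42 without tumour 05, 0.00 without tumour 09). On the MYC target score, DESeq2 called 14 higher and 17 lower, 2 were called higher without a filter and 3 with the tag family or the full tag, and with the full tag the slope of Myc was -1.04. On the Wnt score, DESeq2 called 196 higher and 156 lower, DESeq2 size factors 7 higher, no filter 4 lower, the term for RNAs without a poly(A) tail 31 higher and 17 lower, and the median of the list 54 and 56. With the tag family or the full tag, or without tumours 06 and 07, the Wnt score called 0 higher and 0 lower, and with single tumours left out 0 to 6 higher and 1 to 8 lower, the highest of both without tumour 07. With the longest transcript as length the log2 balance of activators and repressors was -0.38, and 6 of 10 members kept their rank; with single tumours left out it ran from 0.07 to 0.15. The causes were not tested. Depth limits Mycn, at 3 to 34 counts per tumour, and Mxd3, at 25 to 197.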
